A study of Mus musculus with 29 samples.

Results

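The subject of this section is the response to a new context, compared between 2 brain regions at 2 times. For each gene, the log2 fold change against naive mice in the anterior cingulate cortex (ACC) 4 weeks after the context was set against that in hippocampal CA1 1 h after the context. All genes listed in both of the authors' deposited tables were taken, joined by gene ID: 14859 genes, of 15672 listed in any of the 4 gene tables of the series. The ACC table lists 15270 genes, of which 411 were absent from the CA1 table. The CA1 table lists 15123, of which 264 were absent from the ACC table. The groups were ACC of mice taken 4 weeks after context exposure, ACC of naive mice, CA1 of mice taken 1 h after context exposure and CA1 of naive mice, with 5 RNA-seq libraries of polyadenylated RNA each. All were male mice, labelled C56BL/6, aged 3 months and housed individually. The series also holds 5 ACC and 4 CA1 libraries of mice that met the context with a 0.7 mA footshock. The 2 sides of the comparison differ in region and in time at once, and these cannot be told apart. The ACC mice also waited 4 weeks after training, the labels give 3 months for every group, and age at death cannot be told apart from training in ACC. Whether ACC and CA1 of 1 mouse were both used is not given.

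Contextual learning depends at first on the hippocampus, whose field CA1 is its main output, and the recall of older contextual memories draws more on cortical regions such as ACC. Neuronal activity switches on immediate early genes within minutes. Many encode transcription factors, which in turn act on genes for synaptic proteins, signalling inhibitors and growth factors. Those transcripts are short-lived, while ion channels, receptors and scaffolds set the longer-lasting properties of a neuron.

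The tables give 1 base mean (the normalised count averaged over libraries), 1 log2 fold change and 1 p-value per gene. Without values per library, the depth is unknown and the spread over mice cannot be shown. An error of each fold change was implied by its p, with a median of 0.0877 in ACC and 0.0923 in CA1 on the log2 scale. Positive fold changes are higher after context than in naive mice, and a positive difference means a higher fold change in ACC than in CA1. The regions matched their labels. Fibcd1, a marker of CA1, had a base mean of 128 in ACC and 4061 in CA1 in the authors' deposited tables, and Spink8, another CA1 marker, 33.0 and 480 in the same order. The cortical markers Lamp5 and Tbr1 were 4.80-fold and 2.71-fold higher in ACC by base mean. The striatal marker Adora2a was also 5.64-fold higher in ACC in the authors' deposited tables. Levels were normalised separately in the 2 tables, so these ratios describe the dissections and were not tested.

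The context response differed between ACC at 4 weeks and CA1 at 1 h for 2141 genes, 14.4% of the 14859 tested (two-sided Wald test of the difference, Benjamini-Hochberg adjusted p under 0.05, each fold change with its implied error). It was higher in ACC for 820 genes (5.52%) and lower in ACC for 1321 (8.89%). The genes with a higher response in CA1 included immediate early genes and endothelial genes. A second group, of channel, receptor, scaffold and chromatin enzyme genes with long transcripts, was lower in ACC and in part higher in CA1. Genes of the respiratory chain, the ribosome and the proteasome, with short transcripts, were among those on the other side. The median error of a difference was 0.127, the median difference over all genes 0.0191, and the smallest absolute difference called 0.14. Differences of at least 1 on the log2 scale were called for 25 genes higher and 163 lower in ACC. Across genes, which share their libraries and are not replicates, the 2 fold changes had a Pearson r of -0.072 and a Spearman rho of -0.041.

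Each region had calls of its own in the authors' deposited tables, at a deposited adjusted p under 0.05. Of the 14859 genes, 1418 were called higher (9.54%) and 1550 lower (10.4%) in ACC, 2968 in all. In CA1, 686 were called higher (4.62%) and 514 lower (3.46%), 1200 in all. Only 188 genes (1.27%) were called in both in opposite directions, which is 6.33% of the ACC calls and 15.7% of the CA1 calls. Of these, 170 were lower in ACC and higher in CA1, and 18 were higher in ACC and lower in CA1. Another 108 genes (0.727%) were called in the same direction, 39 higher in both and 69 lower in both. Among the 1321 genes whose response was lower in ACC, 699 were called in ACC alone, 271 in CA1 alone and 179 in neither table. Among the 820 on the other side, 511 were called higher in ACC alone, 151 lower in CA1 alone and 140 in neither. The difference of 319 genes was therefore called without a call in either region.

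**Figure D1:**
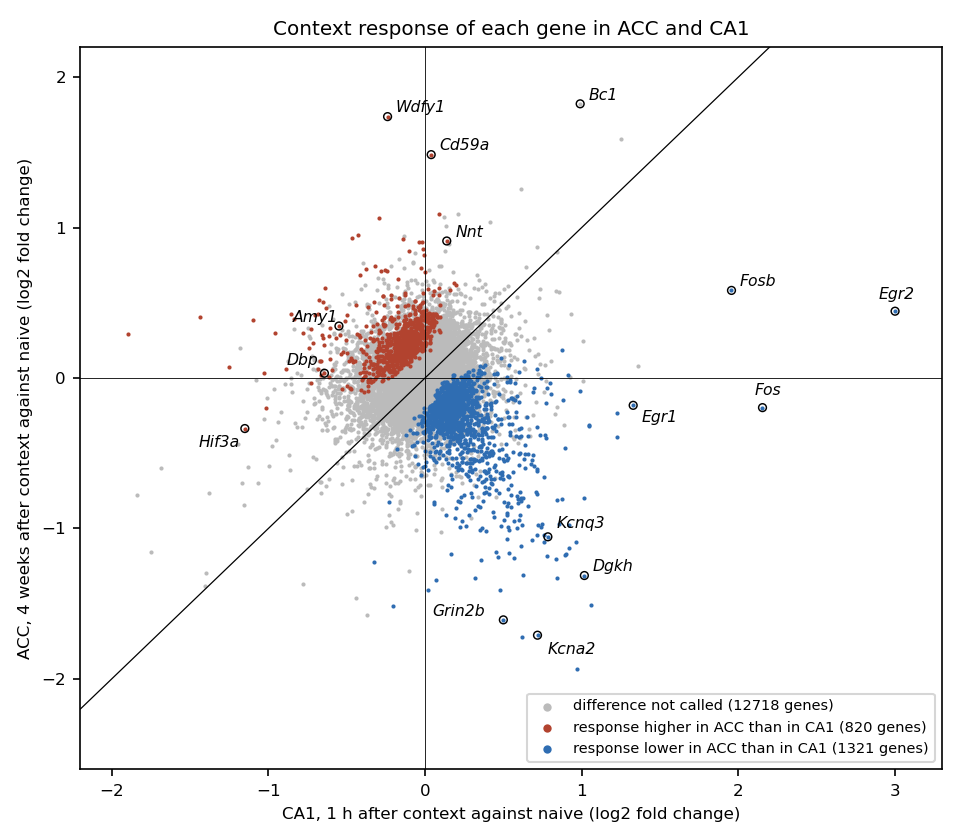
Log2 fold change after context against naive of 14859 genes, ACC at 4 weeks on the vertical axis and CA1 at 1 h on the horizontal axis, with the line of equal response. The 820 genes called higher in ACC (red) lie above the line and the 1321 called lower (blue) below it, with Egr2, Fos and Fosb far to the right at ACC values of 0.44, -0.20 and 0.58 and Kcna2, Grin2b and Dgkh low in ACC and right of 0 in CA1.

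Of 25 immediate early transcription factors measured, 9 had a lower response in ACC at 4 weeks than in CA1 at 1 h and 0 a higher one, and 16 did not pass. Their median difference was -0.43, against 0.0191 over all genes, and 22 of 25 differences were negative. Over all genes, 8.89% were lower in ACC and 5.52% higher. The authors' deposited tables call 2 of these 25 higher and 0 lower in ACC, against 11 higher and 1 lower in CA1. The shares of all genes there were 9.54% higher and 10.4% lower in ACC, and 4.62% higher and 3.46% lower in CA1. Egr2, a zinc finger transcription factor (chromosome 10, 67535475 to 67542188), stood at log2 0.44 in ACC (95% interval -0.42 to 1.31) and 3.00 in CA1 (2.62 to 3.38) in the authors' deposited tables. Its difference was -2.56 (-3.50 to -1.61, adjusted p = 1.02e-05), and the intervals of the regions did not overlap. Fos, an AP-1 subunit (chromosome 12, 85473890 to 85477273), had -0.20 in ACC (-0.97 to 0.57) and 2.15 in CA1 (1.62 to 2.68) in the authors' deposited tables, a difference of -2.35 (adjusted p = 5.24e-05). Egr1 differed by -1.51 (adjusted p = 2.85e-06), with -0.18 in ACC and 1.33 in CA1 in the authors' deposited tables. Fosb, another AP-1 subunit, was called higher in both regions there, with 0.58 in ACC (0.28 to 0.88) and 1.96 in CA1 (1.68 to 2.24), and still differed by -1.37 (adjusted p = 1.68e-08). The nuclear receptor gene Nr4a3 had -0.03 in ACC and 0.80 in CA1 in the authors' deposited tables, a difference of -0.83 (adjusted p = 2.82e-06). Egr3, Nr4a1, Klf4 and Fosl2 made up the rest of the called members, with differences of -1.08, -1.02, -0.69 and -0.43. The differences of 2 further activity genes were not called. Arc, whose product acts at synapses, had -0.34 in ACC and 0.67 in CA1 in the authors' deposited tables, and its difference of -1.001 (-2.01 to 0.00, adjusted p = 0.185) ran the same way with a wide interval. Npas4 had -0.22 and -0.13 in the same tables and order (difference -0.09, adjusted p = 0.843). The implied errors of several of these genes were wide for their level in ACC: 6.99 times the median of genes of like base mean for Arc, 4.11 times for Fos, 4.09 times for Egr1 and 4.48 times for Homer1. Of the 25 list members, 18 exceeded 1.5 times that median in one region or the other, and among the 7 that did not, 2 were called lower.

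The windows before the start sites of Fos, Fosb, Nr4a3 and Egr2 are shown as examples of genes with a CA1 response above that of ACC. Each holds the 150 bases before the RefSeq start (GRCm38.p6), 5′ to 3′ on the gene's strand, with matches to TGACG or its reverse complement CGTCA, the core of the cAMP response element, in capitals.
Fos, chr12:85473740-85473889, plus strand: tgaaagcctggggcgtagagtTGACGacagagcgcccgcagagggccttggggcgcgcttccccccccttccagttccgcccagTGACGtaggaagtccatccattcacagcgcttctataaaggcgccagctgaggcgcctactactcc
Fosb, chr7:19310046-19310195, minus strand: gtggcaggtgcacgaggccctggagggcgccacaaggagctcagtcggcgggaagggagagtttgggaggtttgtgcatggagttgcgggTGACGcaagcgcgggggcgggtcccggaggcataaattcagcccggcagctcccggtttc
Nr4a3, chr4:48045155-48045304, plus strand: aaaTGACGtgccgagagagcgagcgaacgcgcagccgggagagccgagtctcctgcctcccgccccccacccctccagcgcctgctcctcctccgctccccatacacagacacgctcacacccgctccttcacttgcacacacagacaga
Egr2, chr10:67535349-67535498, plus strand: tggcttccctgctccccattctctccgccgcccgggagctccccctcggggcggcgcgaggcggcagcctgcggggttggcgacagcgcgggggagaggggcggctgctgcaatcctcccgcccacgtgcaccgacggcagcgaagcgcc
Searched on both strands, with matches allowed to overlap, TGACG was found in 1 place for Fosb and Nr4a3, 2 for Fos and 0 for Egr2. Windows not shown, of genes with the same direction, held 0 for Kcnj6, Errfi1 and Cdkn1a and 3 for Arl5b. Windows were matched for 10623 of the 14859 genes, and 20.8% of them (2207) held it. Among members of this list and of the list of activity-induced effectors, 25 of 54 with a window did (46.3%), and 9 of the 19 called lower in ACC (47.4%). The RefSeq start of Nr4a3 lies 152 bases, that of Egr2 24 bases and that of Arl5b 5925 bases downstream of the start in the authors' deposited tables. The Nr4a3 and Arl5b windows therefore lie within the deposited genes. A match is a description of the letters, and binding was not measured.

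Among effectors and feedback regulators downstream of activity, most calls were in the same direction. Of 48 measured, 18 had a lower response in ACC, 2 a higher one and 28 did not pass, with a median difference of -0.32. Over all genes, 8.89% were lower and 5.52% higher. In the authors' deposited tables, 8 of the 48 were called lower and 3 higher in ACC, against 18 higher and 0 lower in CA1. Of all genes, 10.4% were called lower and 9.54% higher in ACC there, and 4.62% higher and 3.46% lower in CA1. Dusp4, a phosphatase that inactivates MAP kinases, had -0.51 in ACC and 0.65 in CA1 there, a difference of -1.16 (adjusted p = 5.69e-06). Kcnj6, a G protein-gated potassium channel subunit (chromosome 16, 94749266 to 94997696), had -0.51 (-0.71 to -0.30) in ACC and 0.64 (0.42 to 0.86) in CA1 in the authors' deposited tables, a difference of -1.14 (adjusted p = 9.31e-11). Both were thus below the naive level in ACC and above it in CA1. Errfi1, an inhibitor of the EGF receptor, and Arl5b, a small GTPase, showed the same pattern at smaller sizes, with differences of -0.50 (adjusted p = 1.39e-06) and -0.70 (adjusted p = 1.60e-06). Other members were called in CA1 alone in the authors' deposited tables: Homer1, a scaffold of glutamatergic synapses with a short form induced by activity, had 0.02 in ACC and 0.91 in CA1 (difference -0.89, adjusted p = 0.0143). Nfil3, a repressor that binds D-box sites, had 0.06 and 0.72 in the authors' deposited tables, in the same order. Dusp6, Spry4 and Sik1, inhibitors of ERK signalling and of a CREB coactivator, differed by -0.68, -0.81 and -0.84. The growth factor gene Bdnf differed by -0.48 and Cdkn1a, a cell cycle inhibitor, by -0.71. The activin subunit gene Inhba, at base means of 29.4 in ACC and 16.9 in CA1, was instead called in ACC alone in the authors' deposited tables, at -0.80 in ACC and 0.59 in CA1 (difference -1.39, adjusted p = 0.00496). The 2 exceptions were Rgs2 (0.32) and Ifrd1 (0.45), higher in ACC. After a spline on transcript length and GC content was subtracted from each contrast, 7 of the 9 transcription factors and 16 of the 18 effectors called lower kept their call, and the list medians were -0.44 and -0.39. Egr3, Fosl2 and Rgs2 lost theirs. Over all genes, 481 of the 1321 called lower kept their call.

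Endothelial genes were also among those with a lower response in ACC. Of 25 endothelial and pericyte markers, 7 were lower in ACC, 0 higher and 18 not called, with a median difference of -0.19. The shares over all genes were 8.89% lower and 5.52% higher. Flt1, a VEGF receptor, had -0.03 in ACC (-0.20 to 0.14) and 0.53 in CA1 (0.37 to 0.68) in the authors' deposited tables, a difference of -0.55 (adjusted p = 9.89e-05). Cdh5 and Pecam1, adhesion proteins of the endothelium, differed by -0.49 (adjusted p = 0.00259) and -0.44 (adjusted p = 0.00679), with values in ACC of -0.04 and 0.02 in the authors' deposited table. Abcb1a, a drug efflux pump of the blood-brain barrier, was instead called lower in ACC (-0.30) with no call in CA1 (0.15) in the authors' deposited tables. Cldn5, a tight junction gene, was called higher in both regions, at 0.42 in ACC and 0.78 in CA1 there, and its difference of -0.36 was not called (adjusted p = 0.0700, or 0.0197 after the length and GC correction). After that correction, 4 of the 25 markers were lower, among them Cdh5 and Pecam1, while Flt1 was at an adjusted p of 0.0506. In bulk tissue, more vessel RNA per cell and more vessel cells cannot be told apart.

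Glucocorticoid-responsive and clock genes did not move as blocks. Of 24 glucocorticoid-responsive genes, 6 were lower in ACC and 1 was higher, with a median difference of 0.12, opposite in sign to the larger count. Over all genes, 8.89% were lower and 5.52% higher. Zbtb16 and Klf9, transcription factors induced by glucocorticoids, had -0.64 and -0.32 in ACC and 0.26 and 0.19 in CA1 in the authors' deposited tables, for differences of -0.90 (adjusted p = 0.000227) and -0.51 (adjusted p = 4.44e-06). Neither was called in CA1 by itself (deposited adjusted p = 0.297 and 0.0821). Hif3a, a hypoxia-inducible factor family member (chromosome 7, 17031507 to 17062427), went the other way. It had -0.34 in ACC (-0.62 to -0.06) and -1.15 in CA1 (-1.47 to -0.83) in the authors' deposited tables, a difference of 0.81 (adjusted p = 0.00368), and it was called in CA1 only. Sgk1 and Fkbp5, standard glucocorticoid targets, were not called, with differences of 0.12 and -0.20 (adjusted p = 0.825 and 0.279). Of 19 clock genes, 4 were lower in ACC and 3 higher. Dbp, a clock output factor (chromosome 7, 45705088 to 45710155), had 0.03 in ACC and -0.64 in CA1 in the authors' deposited tables (difference 0.67, adjusted p = 0.000486). Per3 (0.45) and Rorb (0.42, adjusted p = 0.0343) were also higher in ACC, while Per1 (-0.56), Nfil3 (-0.66), Bhlhe40 (-0.42) and Clock (-0.56) were lower, and the calls of Per1 and Clock were lost after the length and GC correction. The labels used here give no time of day for the ACC or CA1 samples.

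**Figure D2:**
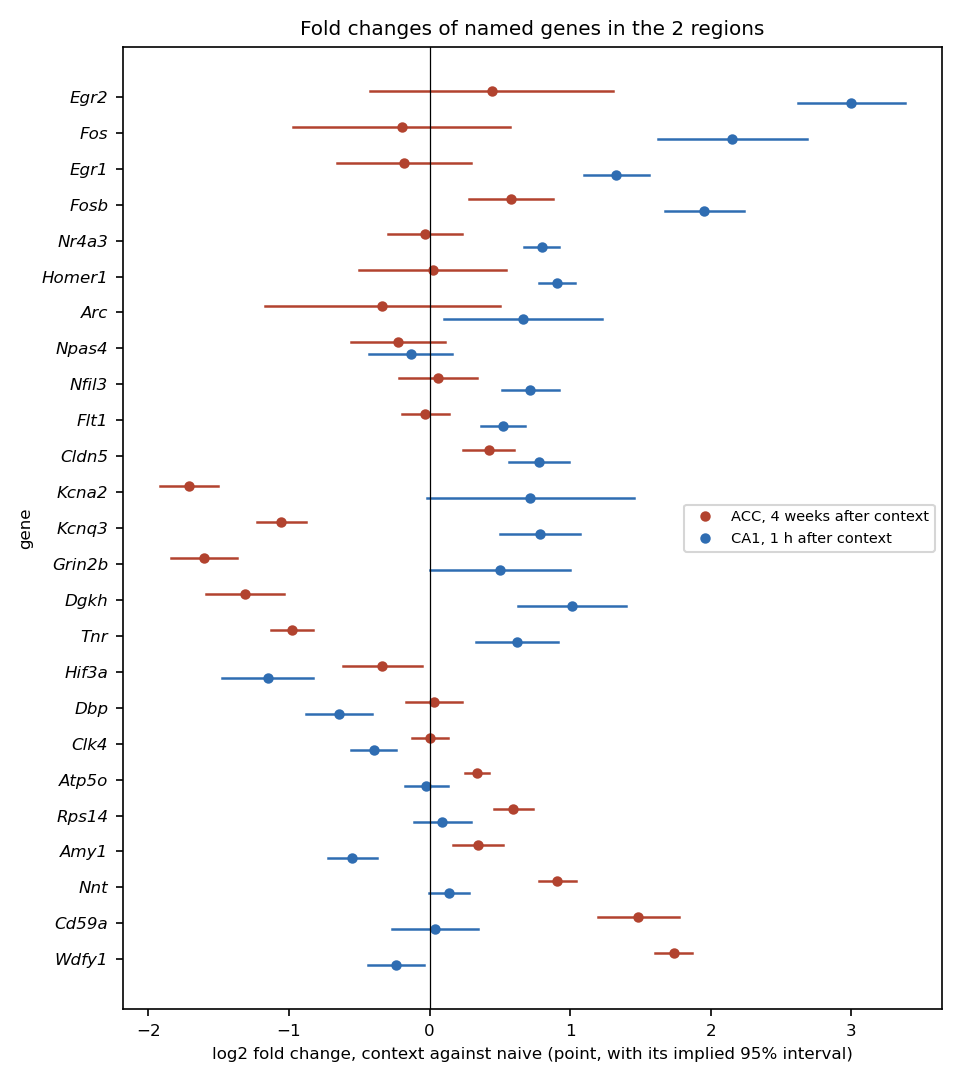
Log2 fold change after context against naive for 25 genes, with the 95% interval implied by the deposited p; ACC at 4 weeks (red) is drawn above CA1 at 1 h (blue) for each gene. The early genes at the top, Egr2 to Npas4, have ACC intervals that include 0 except for Fosb and CA1 values up to 3.00. The values of Kcna2, Kcnq3, Grin2b, Dgkh and Tnr, which have long annotated transcripts, lie on opposite sides of 0, though Kcna2 and Grin2b were not called in CA1. Wdfy1, Cd59a and Nnt at the bottom are high in ACC at 1.74, 1.48 and 0.91.

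Potassium channel genes, which set resting potential and firing, were lower in ACC in 16 of 38 cases and higher in 1, with a median difference of -0.17. Over all genes, 8.89% were lower and 5.52% higher. The authors' deposited tables call 19 of these 38 lower and 2 higher in ACC, against 8 higher and 3 lower in CA1. The shares of all genes there were 10.4% lower and 9.54% higher in ACC, and 4.62% higher and 3.46% lower in CA1. Kcna2, an axonal channel (chromosome 3, 107101567 to 107106879), had -1.71 in ACC (-1.92 to -1.50) and 0.72 in CA1 (-0.02 to 1.46) in the authors' deposited tables. Its difference was -2.43 (-3.19 to -1.66, adjusted p = 1.41e-07), but CA1 by itself was not called (deposited adjusted p = 0.252) and its error there was 4.07 times the median of its level. Kcnq3, a subunit of the M current (chromosome 15, 65995171 to 66286224), was called in both regions in opposite directions, at -1.06 (-1.23 to -0.88) in ACC and 0.78 (0.50 to 1.07) in CA1 in the authors' deposited tables (difference -1.84, adjusted p = 2.33e-23). Kcnma1, the calcium-activated BK channel, differed by -1.59 (adjusted p = 3.75e-08), with CA1 by itself not called (deposited adjusted p = 0.160). The single member on the other side was Kcna4 (0.29). After the length and GC correction, 10 potassium channel genes were lower and 3 higher, and Kcna2, Kcnq3, Kcnma1 and Kcnj6 were still called. Of all 14736 genes with a corrected value, 537 were lower and 403 higher.

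The other channel and receptor lists were smaller, and 8.89% of all genes were lower and 5.52% higher in ACC. All 26 sodium and calcium channel genes had a negative difference, but 9 were called, among them Cacna1c (-0.68, adjusted p = 0.000360), Cacna1i (-0.57, adjusted p = 1.46e-06), Cacna1a (-0.47, adjusted p = 0.00270) and Scn8a (-0.46, adjusted p = 2.76e-07). None of the 26 was called after the length and GC correction, where their median of -0.20 moved to -0.075. Their median transcript length was 7681 bases, against 3399 over all genes. Of 22 glutamate receptor genes, 3 were lower in ACC and 0 higher, with a median of -0.053. The NMDA receptor subunit gene Grin2b (chromosome 6, 135729826 to 136173511) had -1.61 (-1.84 to -1.37) in ACC and 0.50 (0.00 to 1.00) in CA1 in the authors' deposited tables, a difference of -2.11 (adjusted p = 6.66e-11). Its CA1 change by itself was not called (deposited adjusted p = 0.233). Grin2a, another NMDA receptor subunit, was called in both there, at -1.05 in ACC and 0.76 in CA1 (difference -1.81, adjusted p = 2.13e-11). The kainate receptor gene Grik3 (-0.46, adjusted p = 0.00220) was the third, and its call was lost after the correction (adjusted p = 0.650). Among 14 GABA receptor genes, Gabrb2 (-1.11, adjusted p = 0.00170) and Gabrb1 (-0.69, adjusted p = 2.83e-05) were lower in ACC and Gabra2 (0.94, adjusted p = 0.0361) was higher. Gabrb2 was not called in CA1 by itself (deposited adjusted p = 0.324). After the correction Gabrb1 was not called (-0.32, adjusted p = 0.146). The glutamate receptor list then had 3 lower and 2 higher, and the GABA receptor list 1 lower and 2 higher. Over all 14736 genes with a corrected value, 537 were lower and 403 higher.

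Synaptic and chromatin lists had more genes called lower than higher in ACC, as all genes did (8.89% lower and 5.52% higher), and most of these calls were lost after the length and GC correction. Of 39 adhesion and postsynaptic scaffold genes, 13 were lower and 1 was higher, with a median of -0.17. Dlgap2 and Dlg2, scaffolds of the postsynaptic density, had -0.47 and -0.48 in ACC and 0.39 and 0.28 in CA1 in the authors' deposited tables, with differences of -0.86 (adjusted p = 6.13e-07) and -0.76 (adjusted p = 0.000104). Dlg2 was not called in CA1 by itself (deposited adjusted p = 0.205). The 1 scaffold gene called higher was Nlgn3, a synaptic adhesion protein, with 0.24 in ACC and -0.27 in CA1 in the authors' deposited tables (difference 0.51, adjusted p = 0.000126). Of 32 vesicle and active zone genes, 7 were lower and 2 higher, among them Syt2 (-0.59), Unc13a (-0.50) and Rims2 (-0.50). Of 39 histone methylation enzymes, 15 were lower and 1 was higher, with a median of -0.22 and Mll3 (-0.57), Ash1l (-0.52), Setd7 (-0.47) and Kdm5c (-0.45) the members with the smallest p. Of 26 histone acetylation genes, 6 were lower and 1 was higher, among them the deacetylase gene Hdac4 (-1.11, adjusted p = 5.50e-06), the acetyltransferase genes Kat6a (-0.61), Crebbp (-0.77) and Ep300 (-0.51). A second gene model named Hdac4, at higher base means, differed by 0.27 and was not called (adjusted p = 0.108). Of 16 DNA methylation genes, 4 were lower and 0 higher, among them Tet3 (-0.39), which oxidises methylated cytosine, Mbd5 (-0.35), a methyl-CpG-binding domain protein, and Dnmt1 (-0.27), the maintenance methyltransferase. Of 26 matrix genes 6 were lower, led by Tnr, tenascin R of perineuronal nets (chromosome 1, 159737510 to 159924397), at -0.98 in ACC and 0.62 in CA1 in the authors' deposited tables (difference -1.60, adjusted p = 5.36e-18). After the length and GC correction, the calls of these lists were fewer: 4 lower and 2 higher for the scaffold list, 2 and 3 for the vesicle list, 1 and 1 for histone methylation, 2 and 1 for histone acetylation, 0 and 0 for DNA methylation and 1 and 0 for the matrix list. Among the genes named here, Unc13a, Mll3, Ash1l, Setd7, Kdm5c, Crebbp, Ep300, Tet3, Mbd5 and Dnmt1 lost their call. The medians of the DNA methylation and matrix lists then changed sign, to 0.0101 and 0.0378.

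Some genes were called in both regions in opposite directions. Among the 170 genes lower in ACC and higher in CA1, the 5 with the smallest p were Kcnq3, Tnr, Dgkh, Slc7a1 and Adar. Dgkh, a diacylglycerol kinase (chromosome 14, 78569609 to 78725089), had -1.31 (-1.59 to -1.04) in ACC and 1.02 (0.63 to 1.40) in CA1 in the authors' deposited tables, a difference of -2.33 (adjusted p = 2.57e-18). The amino acid transporter gene Slc7a1 had -0.48 and 0.31, and the RNA-editing enzyme gene Adar -0.32 and 0.19, ACC first, in the authors' deposited tables. Their differences were -0.79 (adjusted p = 1.94e-16) and -0.51 (adjusted p = 2.97e-13), and both held after the length and GC correction. Klf12, a Krüppel-like repressor, was among the 6 lowest called differences of genes with base means of at least 50 in both tables, at -2.07 (adjusted p = 3.52e-08). Of the 18 genes with the reverse pattern, Amy1, an amylase gene (chromosome 3, 113555710 to 113606699), had 0.35 (0.17 to 0.52) in ACC and -0.55 (-0.72 to -0.38) in CA1 in the authors' deposited tables, a difference of 0.90 (adjusted p = 8.74e-10). Amylase genes have near-identical copies, so its counts are uncertain. Gas5, a noncoding host gene of small nucleolar RNAs, differed by 0.61 (adjusted p = 2.83e-06), Ntan1, an N-terminal amidase, by 0.50 (adjusted p = 1.63e-06), Sec11c, a signal peptidase subunit, by 0.45 (adjusted p = 5.29e-07) and Elmo1, a regulator of Rac, by 0.40 (adjusted p = 2.99e-06).

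Genes of the respiratory chain and ATP synthase had the most calls on the higher side among the 29 lists. Over all genes, 5.52% were higher in ACC and 8.89% lower. Of 76 nuclear genes, 30 were higher in ACC and 0 lower, with a median difference of 0.29, and 75 of 76 differences were positive. The authors' deposited tables call 51 of them higher and 0 lower in ACC, against 0 and 0 in CA1. For all genes these shares were 9.54% and 10.4% in ACC, and 4.62% and 3.46% in CA1. Atp5o, an ATP synthase subunit, had 0.34 (0.26 to 0.43) in ACC and -0.02 (-0.18 to 0.13) in CA1 in the authors' deposited tables (difference 0.36, adjusted p = 0.00120). Ndufb5, Ndufa3 and Cox6c, of complexes I and IV, differed by 0.39, 0.40 and 0.40. Of 77 cytosolic ribosomal protein genes, 25 were higher and 1 was lower, with a median of 0.28. Rpl35a differed by 0.54 (adjusted p = 0.000103), Rps14 by 0.51 (adjusted p = 0.00136), Rps2 by 0.46 and Rpl30 by 0.39, while Rpl24 was the exception at -0.29. Ribosomal protein genes have many processed copies, which makes single counts uncertain. Of 31 proteasome subunit genes 10 were higher and 0 lower (median 0.18), among them Psmb7 (0.42), Psma4 (0.41), Psmb1 (0.36) and Psma1 (0.31). Their transcripts were short, with median lengths of 1186, 1094 and 1819 bases for the 3 lists. After the length and GC correction, 2 respiratory chain genes, 2 ribosomal protein genes and 0 proteasome genes were higher, and the medians were 0.12, 0.13 and 0.050. Of all 14736 genes with a corrected value, 403 were higher and 537 lower. Atp5o, Ndufa3, Rps14, Rps2, Rpl30, Rpl24 and the 4 named proteasome genes lost their call.

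A few splicing factors and RNA-binding proteins had a higher response in ACC. Of 51 measured, 6 were higher in ACC, 0 lower and 45 not called, with a median difference of 0.080. For all genes the shares were 5.52% higher and 8.89% lower. The authors' deposited tables call 20 of the 51 lower and 1 higher in CA1, against 5 lower and 1 higher in ACC. Srsf5, a serine and arginine rich splicing factor, had 0.04 in ACC and -0.39 in CA1 there (difference 0.44, adjusted p = 0.00281). Clk4, a kinase of such factors, had 0.00 and -0.40 (difference 0.40, adjusted p = 0.00304), and Cirbp, a cold-inducible RNA-binding protein, 0.04 and -0.36 (difference 0.39, adjusted p = 0.0325) in the authors' deposited tables, ACC first. Hnrpdl, an RNA-binding protein gene, had -0.09 and -0.36 in the same tables and order, with a difference of 0.27 (adjusted p = 0.000486). After the length and GC correction, 3 splicing genes were higher and 0 lower, and Clk4 (adjusted p = 0.0603) and Cirbp (adjusted p = 0.330) were not called.

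Several genes of other functions had a higher response in ACC and were called higher in ACC alone in the authors' deposited tables. Wdfy1, an endosomal protein (chromosome 1, 79702262 to 79776143), had 1.74 (1.61 to 1.87) in ACC and -0.24 (-0.44 to -0.04, deposited adjusted p = 0.133) in CA1 in the authors' deposited tables. Its difference of 1.98 (1.74 to 2.22) had the smallest p of any gene (adjusted p = 1.14e-54) and was the highest called difference among genes with base means of at least 50 in both tables. Cd59a, an inhibitor of complement (chromosome 2, 104095801 to 104115354), had 1.48 in ACC and 0.04 in CA1 in the authors' deposited tables (difference 1.45, adjusted p = 7.94e-09). Nnt, a mitochondrial transhydrogenase known to differ between mouse substrains (chromosome 13, 119335448 to 119408997), had 0.91 and 0.14, ACC first, in the same tables (difference 0.77, adjusted p = 2.13e-11). Cd44, a hyaluronan receptor, differed by 1.07 (adjusted p = 0.00313), the cadherin-related gene Cdhr1 by 1.00 (adjusted p = 2.63e-05) and Gsta4, a glutathione transferase, by 0.69 (adjusted p = 2.82e-08). After the length and GC correction the differences of Wdfy1, Cd59a and Nnt were 2.02, 1.28 and 0.75, all called.

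Markers of other cell types and of neighbouring tissue had few calls of the difference. Their shares were near or below the 14.4% of all genes called either way. By direction, 5.52% of all genes were higher and 8.89% lower in ACC. Of 18 microglial markers 2 were higher in ACC, Aif1 (0.58, adjusted p = 0.0239) and P2ry12 (0.33, adjusted p = 0.0334), with a median of 0.20. After the length and GC correction, 0 were higher and 1 was lower. In the authors' deposited tables, 9 of the 18 were called higher and 0 lower in ACC, against 1 higher and 0 lower in CA1. Of all genes, 9.54% were called higher and 10.4% lower in ACC there. Of 16 astrocyte markers 2 were lower, Acsl6 (-0.23) and Slc4a4 (-0.24). Of 20 oligodendrocyte markers 1 was lower, Gpr17 (-0.61), a gene of oligodendrocyte precursors. Their errors were wide, with a median of 1.75 times that of genes of like base mean in ACC and 1.77 times in CA1. In both regions, 4 of the 20 stayed within 1.5 times, so few calls do not show that these genes were unchanged. None of 13 meningeal, choroid plexus and red blood cell markers was called, with differences from -0.98 to 0.42. Of these 13, 5 stayed within that error limit. Of 22 interneuron markers, Cort, a neuropeptide gene, was lower in ACC at -1.42 (adjusted p = 1.44e-06), Crhbp, a binding protein of corticotropin-releasing hormone, was lower at -0.49 and Htr3a, a serotonin receptor, was higher at 0.46 (adjusted p = 0.0474). The authors' deposited tables call 7 of the 22 higher and 4 lower in ACC, against 0 and 0 in CA1. Of 20 striatal, septal and thalamic markers 2 were higher, among them Ppp1r1b (0.52, adjusted p = 0.00449), and 7 were called higher and 2 lower in ACC in the authors' deposited tables. With no values per library, the share of neighbouring tissue in each sample cannot be given, and its part in the results was not tested. Of 20 cortical layer markers 2 were higher (Crym 0.44, Rorb 0.42) and Sulf2 was lower (-0.22). Of 19 hippocampal field markers Hs3st4 was higher (0.42) and Zbtb20 lower (-0.54), and 7 of the 19 stayed within the error limit given above. Chaperones had 1 call in 24 (Dnajb5, lower at -0.70), and of 23 genes of cholesterol synthesis and uptake Acat2 (0.32) and Fdft1 (0.28) were higher. With that correction, Aif1, P2ry12, Acsl6, Slc4a4, Htr3a, Sulf2, Hs3st4, Zbtb20 and Acat2 were not called, with adjusted p from 0.0585 for Hs3st4 to 0.982 for Slc4a4.

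**Figure D3:**
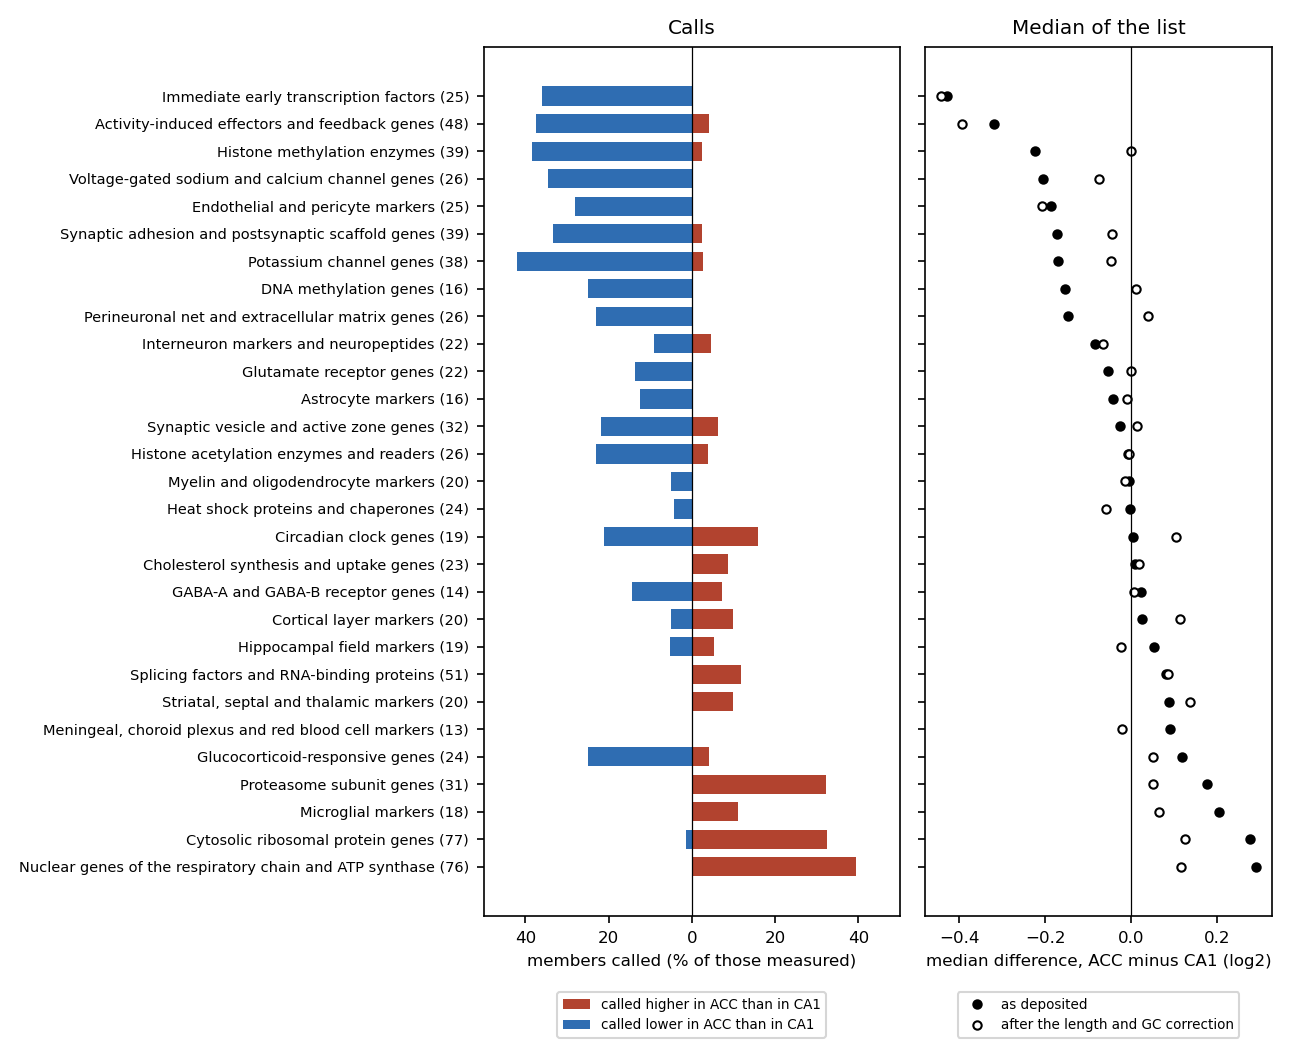
Left, share of the measured members of 29 gene lists (number in brackets) called higher (red, to the right) or lower (blue, to the left) in ACC than in CA1. Right, median difference of each list (log2) as deposited (filled) and after the length and GC correction (open): activity lists stay near -0.43 and -0.32 or below, while the respiratory chain and ribosome medians of 0.29 and 0.28 move to 0.12 and 0.13.

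Fewer genes were called in the same direction in both regions, and their responses could still differ in size, as Fosb did. The 4 of the 39 genes higher in both with the lowest larger p were Bc1, Cldn5, Fabp7 and Hrk. Fabp7, a fatty acid binding protein of astrocytes and progenitors, had 0.38 in ACC and 0.48 in CA1, and Hrk, a proapoptotic BH3 protein, 0.38 and 0.33 in the same order in the authors' deposited tables. Bc1, a short noncoding RNA of dendrites, had 1.82 (1.15 to 2.49) in ACC and 0.99 (0.61 to 1.37) in CA1 there, with a difference that was not called (0.83, adjusted p = 0.145). Its entry is labelled a miRNA (chromosome 7, 144914471 to 144914541), with low base means of 66.2 in ACC and 40.3 in CA1. Its ACC error was 2.08 times the median of its level. Among the 69 genes lower in both, Tob1, an antiproliferative factor, had -0.34 and -0.48, Uri1 -0.31 and -0.33, Nyap2 -0.37 and -0.31, and the zinc finger gene Zfp46 -0.31 and -0.38, ACC first, in the authors' deposited tables. The differences of these 4 lay between -0.05 and 0.14, with 95% intervals from -0.27 to 0.35.

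Among 3 gene properties compared, namely transcript length, GC content and 3′ untranslated length, transcript length had the largest rank correlation with the difference. With the length of the longest annotated transcript it was -0.48 across 14736 genes, which share their libraries. That length can exceed the counted gene: Kcna2, deposited at 107101567 to 107106879, has an annotated transcript of 11582 bases. In ACC the fold change itself fell with length (rho -0.50), and in CA1 it rose (rho 0.17). Genes were split by length into 5 groups of equal size. In the group with the shortest transcripts (median 1391 bases) the median fold change was 0.15 in ACC and -0.028 in CA1, and in the longest group, with a median of 6855 bases, it was -0.14 in ACC and 0.045 in CA1. The share of genes called higher in ACC was 11.8% in the shortest group and 0.92% in the longest, and the share called lower 0.95% and 27.6%. GC content had a rho of 0.17 with the ACC and 0.26 with the CA1 fold change, and of -0.040 with their difference. The length of the longest annotated 3′ untranslated region had a rho of -0.35 with the difference. The 170 genes lower in ACC and higher in CA1 had a median transcript length of 6943 bases, against 3399 over all genes. Of 2141 calls, 213 of the 820 higher and 481 of the 1321 lower remained after the length and GC correction, where 403 and 537 were called in all. The part of length in each called difference was not tested beyond this correction.

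**Figure D4:**
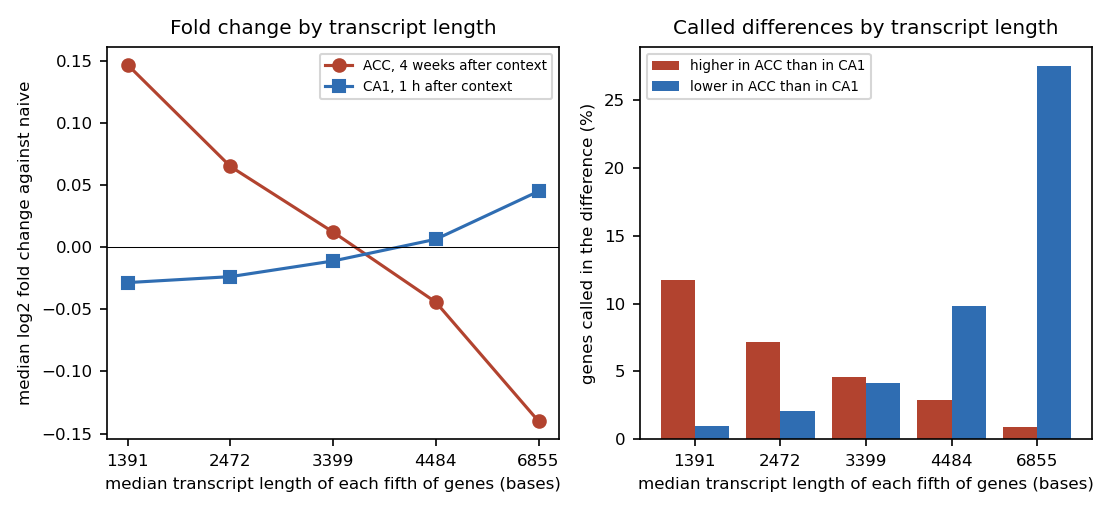
Genes in 5 equal groups by length of the longest annotated transcript, with the median length of each group on the horizontal axis. Left, median log2 fold change against naive in ACC at 4 weeks (red), which runs from 0.15 to -0.14, and in CA1 at 1 h (blue), which runs from -0.028 to 0.045; right, percentage of genes whose difference was called higher (red) or lower (blue) in ACC.

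Models lying upstream and downstream under 1 gene name differed in opposite ways in the 2 regions. The tables hold 19 pairs of gene models that share a name and lie on the same strand without overlapping, an observation made after values were seen. In 17 of 19 pairs the downstream model had the higher ACC fold change, and in 17 of 19 it had the lower CA1 fold change. The difference between regions was higher in the downstream model of 17 pairs, by a median of 0.67 over all 19. For Hdac4 the upstream model differed by -1.11 and the downstream model by 0.27. For Atf7ip, a chromatin factor, the values were -0.60 upstream and 0.48 downstream, for the phosphodiesterase gene Pde4d -0.63 and 0.43, and for the adaptor subunit gene Ap1g1 -0.59 and 0.44. Among the 14 pairs with a base mean of at least 50 in both models and both tables, 13 had the higher difference downstream, by a median of 1.01. Whether the downstream model of a pair is the 3′ end of the same transcript is not given in the sources used here.

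**Figure D5:**
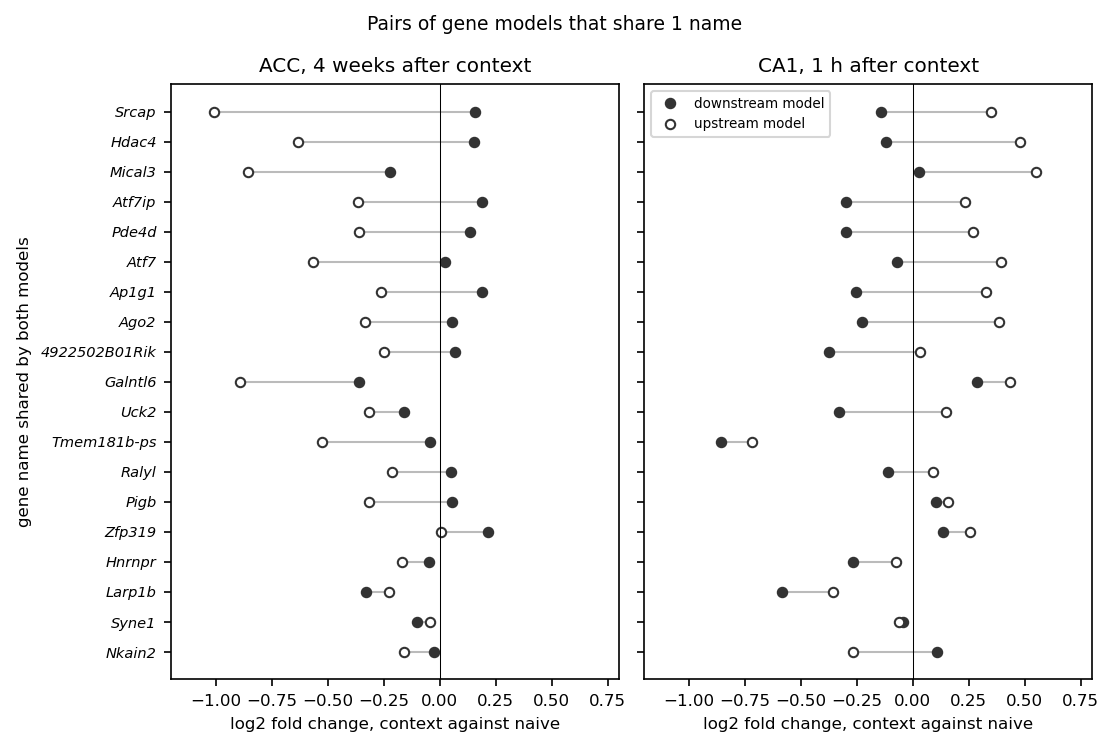
Log2 fold change against naive of the downstream (filled) and upstream (open) gene model of 19 names that have 2 models, in ACC at 4 weeks (left panel) and CA1 at 1 h (right panel). Filled points lie right of open ones in ACC for 17 names and left of them in CA1 for 17.

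Exonic bins listed for both regions mostly had opposite signs. The authors' deposited exon tables stop at an adjusted p of 0.1 and hold 4647 bins for ACC after context and 194 for CA1 after context. They share 93 bins, 2.00% of the ACC and 47.9% of the CA1 list, in 81 gene entries. Of these 93, 79 had opposite signs: 54 were higher in ACC and lower in CA1, and 25 the reverse. Another 9 were higher in both and 5 lower in both. All 18 shared first bins (E001) of genes on the minus strand were higher in ACC and lower in CA1. This bin is the 3′ end of such a gene if bins are numbered by genome position, which the tables do not state, nor do they state whether a bin's value is relative to its gene. In the authors' deposited tables, bin E019 of the glutamate transporter gene Slc1a2 had -0.26 in ACC and 0.15 in CA1. Bin E078 of Nav2 had 0.18 and -0.17, and bin E001 of Rabgap1l 0.078 and -0.13, ACC first. Bin E009 of the Ras inhibitor gene Spred1 had 0.070 and -0.084, and bin E002 of the transcription factor gene Nfib 0.037 and -0.060, in the authors' deposited tables and the same order.

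The shock contrasts of the same genes are given beside these as values only, since they share the naive libraries with the context contrasts. Egr2 had 0.90 in ACC and 2.87 in CA1 after context plus shock in the authors' deposited tables, Fos 0.44 and 2.06, and Homer1 -0.11 and 1.06. Kcna2 had -1.64 and 0.58, Kcnq3 -1.08 and 0.66 and Dgkh -1.19 and 0.85, ACC first, in the authors' deposited shock tables. Wdfy1 had 1.28 in ACC and -0.31 in CA1, Cd59a 1.07 and -0.03, and Nnt 0.81 and 0.09 there. Flt1 had -0.49 in ACC after shock in the authors' deposited table, against -0.03 after context alone, with 0.53 in CA1 after either training. Hif3a had -0.83 in ACC and -1.78 in CA1 after shock there.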

How the data were processed

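Polyadenylated RNA was sequenced from TruSeq libraries, per the labels' protocols. The build mm10 and the tools STAR 2.3.0e, DESeq2, SAMtools and CASAVA 1.8.2 are listed in the submitters' processing notes, without their roles; the annotation and any strand setting are not given, so overlapping genes may share reads. In the authors' deposited tables each gene or exonic bin has, per the file headers, a base mean (normalised count signal), p-values before and after adjustment and a log2 fold change. Whether fold changes were shrunk is not given. Direction was checked from base means: their log2 ratio between a region's 2 tables rose with the difference of fold changes (slope 0.52 in ACC, 0.47 in CA1). The CA1 shock table is rounded.

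The error of a deposited log2 fold change was its size divided by the normal score of its p. The difference was tested with a two-sided Wald test on errors taken as independent, and p-values were Benjamini-Hochberg adjusted over 14859 genes. The labels do not tie each library to a mouse, so p-values measure only the spread between libraries. The test was also run on simulated fold changes drawn with the same implied errors, taken as independent. That run cannot check whether the implied errors or their independence hold. The members, the 29 gene lists and the tests were chosen with earlier results of these data known. Named genes were the 6 highest and 6 lowest called differences with base means of at least 50, 5 by smallest p in both directions and in both opposite patterns, 4 per same-direction pattern, up to 4 per list with at least 2 calls, and 15 genes that earlier results name; further called list members were named after their values were seen, and a few genes and bins are not reported here. Lists are counted by gene ID and share some genes. Lengths and GC content came from GENCODE M21 (99.2% of genes matched), and biotypes from the authors' deposited tables. Spline trends had 5 knots, and promoters came from RefSeq. Software was pandas 2.3.3, scikit-learn 1.9.0, scipy 1.17.1, numpy 2.4.6 and matplotlib 3.10.9 under Python 3.11.15.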

Additional observations from a re-analysis of the deposited data

Results flagged for a closer look

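The effect of context differed between ACC at 4 weeks and CA1 at 1 h by the test of the difference for 820 genes higher and 1321 genes lower in ACC, among 14859. Of 114 named genes, 102 differed by that test, a count set largely by the naming rules, which drew mostly on called genes. Among all genes the share was 14.4%. Genes called in opposite directions all passed the test too (170 and 18), so it adds no separate support for those below. Given here are the 5 with the smallest p among all genes called in both regions in each pattern of opposite directions. Those lower in ACC and higher in CA1 were Dgkh (difference -2.33), Kcnq3 (-1.84), Tnr (-1.60), Slc7a1 (-0.79) and Adar (-0.51). Those higher in ACC and lower in CA1 were Amy1 (0.90), Gas5 (0.61), Ntan1 (0.50), Sec11c (0.45) and Elmo1 (0.40). Transcripts of the first 5 were 5909 to 15257 bases long and those of the second 5 were 1175 to 5464 bases long, and all 10 differences were called after the length and GC correction.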

How the results depend on the processing

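No paired analysis was possible because the deposited tables give 1 fold change per gene and no value per library, and leaving out a library was not possible for the same reason. The counts of 820 higher and 1321 lower genes became 344 and 808 at an adjusted p under 0.01 (47 list members higher, against 93), 403 and 537 after the length and GC correction (list members 31 and 60, against 93 and 127), and 405 and 509 with 3′ untranslated length added to it (30 and 62), an alternative chosen after seeing the data. An error correlation of 0.25 between the contrasts gave 1432 higher, as its smaller error implies. Leaving out genes with an error over 1.5 times the median of their level, also chosen after seeing the data, gave 80 list members lower, from fewer genes. With deposited adjusted p under 0.1 in each table, 291 genes were lower in ACC and higher in CA1, 45 the reverse, 78 higher in both and 128 lower in both; under 0.01 these were 54, 4, 14 and 18. After that correction the medians of the DNA methylation and matrix lists changed sign (0.0101 and 0.0378, and 0.0281 and 0.0278 with 3′ untranslated length), as did Tet3 (0.0051 and 0.020), and with 3′ untranslated length Zbtb20 (0.072); the cause was not tested. Of 113 named genes with a value after it, 42 lost their call, 1 gained one and 1 of the 42 changed sign. Median centring, a base mean of at least 50, a difference of at least 0.25 and raised errors kept both counts within 1.5 times. Depth is unknown, and genes of wide error, such as Arc, limit what can be called.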
